A study of Mus musculus with 6 samples.

Results

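Dpy30 knockout hematopoietic stem cells (HSCs) of the mouse fetal liver held 37 genes whose level in the lowest of 3 knockout samples was at least 3 times the level in the highest of 3 control samples. The genes were chosen by this rule from the measured counts. Rows for mitochondrial genes and rows starting with Gm, most of them numbered predicted genes, were dropped, and the counts of the 25163 rows left were scaled to a total of 1000000 in each sample (CPM). The lowest knockout also had to reach 5 CPM, which 7883 genes did, and the 37 make up 0.469% of those. The mirrored rule, with the genotypes exchanged, held for 19 of 8983 genes (0.212%). Because the rule used all 6 samples, every level and difference of these genes below is a description, with no test. The genes fall into immune receptors and effectors, T-cell costimulation, p53 response, matrix and protease control, ion channels and membrane signalling, motor proteins and a mixed remainder.

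The Dpy30 protein is shared by the SET1/MLL enzyme complexes, which place methyl groups on lysine 4 of histone H3, a mark of active promoters. HSCs give rise to all blood lineages and, in the midgestation embryo, expand in the fetal liver. The comparison addresses what losing Dpy30 does to transcript levels in these cells. They were sorted by flow cytometry on HSC surface markers from E14.5 embryos (embryonic day). The control genotype was Vav-Cre; Dpy30F/+ and the knockout genotype was Vav-Cre; Dpy30F/-, where F is a floxed allele and Vav-Cre is a recombinase transgene active in blood-forming cells. Both groups therefore carried Vav-Cre and a floxed allele, and control cells had 1 intact allele besides it. A control and a knockout sample came from each of 3 litters, and samples are numbered by litter. The labels do not say how many embryos a sample held.

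Dpy30 itself was at 63.6, 61.8 and 81.5 CPM in controls 1 to 3 and at 20.7, 14.9 and 30.4 CPM in knockouts 1 to 3, so residual Dpy30 counts were present in every knockout. The counts left after the drop ranged from 11.2 to 17.1 in controls and from 14.49 to 15.7 in knockouts, in units of 1000000 counts, and 3 counts correspond to 0.175 to 0.268 CPM in the controls. Libraries stood apart within the knockout group. Of 21 HSC marker genes, 20 or 21 were detected in every sample. Their summed level was 1625 CPM in knockout 3, against 3395 to 4736 CPM in the other 5 samples. In knockout 3, 16 of the 21 were below every control, such as Hlf, an HSC transcription factor (60.7 CPM, against 404 to 452 CPM in controls). Another 3, namely Esam, Runx1 and Gata2, were above every control there. In knockouts 1 and 2, 11 and 13 of the 21 were above every control, and 2 and 5 were below. Shares over all genes for a single knockout were not computed, so these counts are not read as particular to HSC markers. Knockout 3 also had the fewest genes with a count, 11904, against 13406 to 14090 in controls. The summed level of 12 endothelial markers was 632 CPM in knockout 2, against 3281 to 5125 CPM in the other 5 samples. Because these are bulk samples, more cells of a type and more RNA per cell cannot be told apart.

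**Figure D1:**
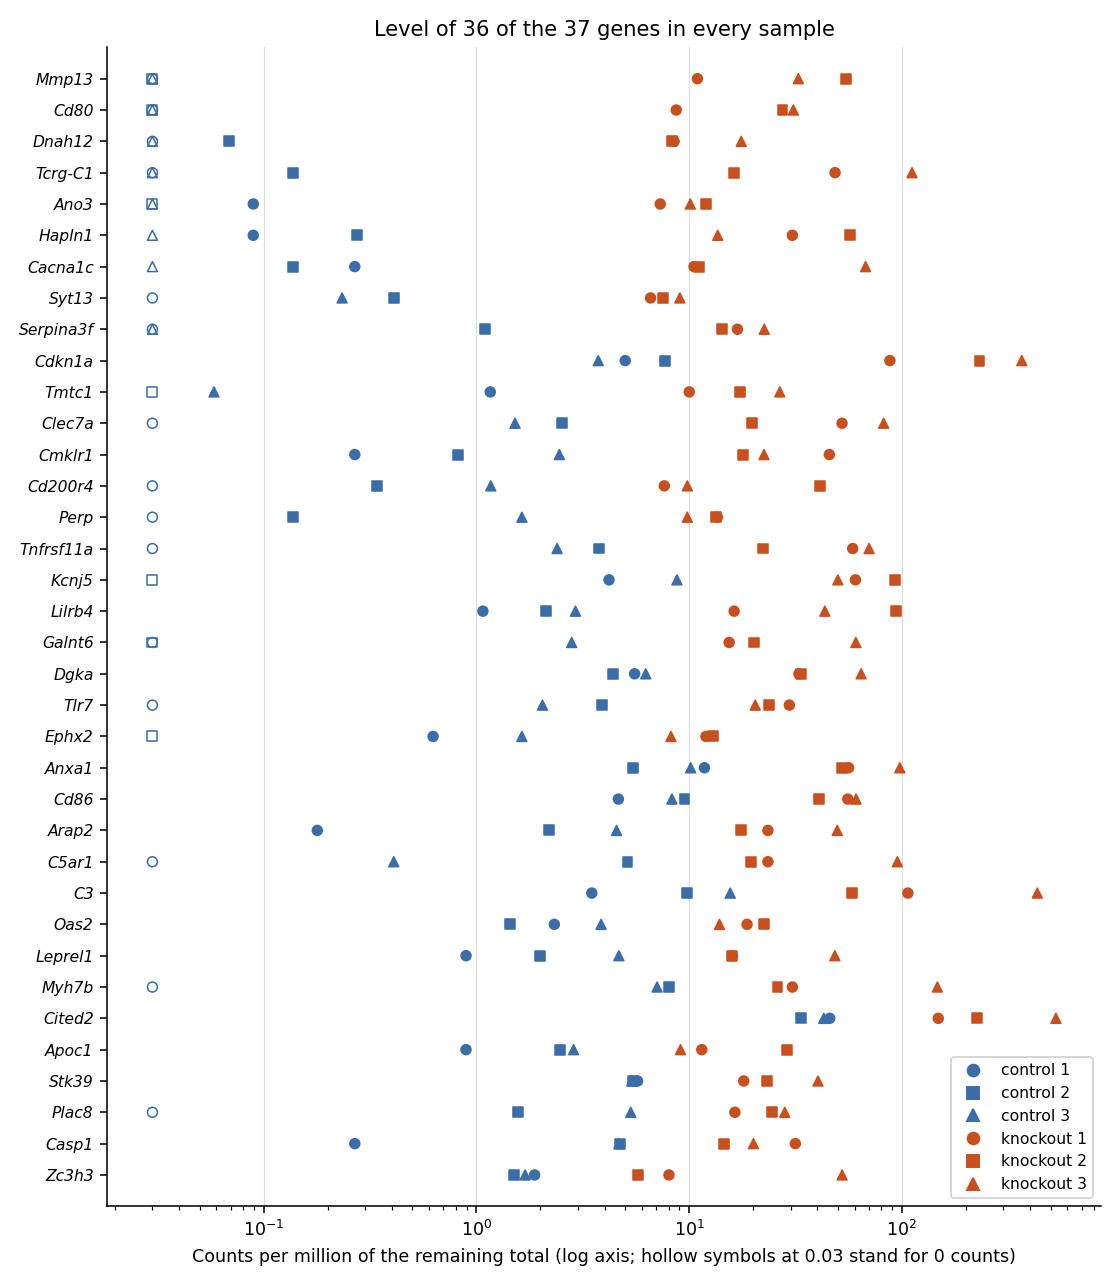
Level of 36 of the 37 genes in every sample. The x axis gives CPM on a log scale, each row is a gene (ordered by the ratio of lowest knockout to highest control), blue symbols are controls, orange symbols are knockouts, and symbol shape gives the litter. Mmp13 and Cd80, at the top, had 0 counts in all 3 controls, and the groups do not overlap in any row because the rule required it.

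Among the 37 genes, 2 had 0 counts in all 3 controls, 5 in 2 controls, 14 in 1 control and 16 in none. Control 1, with the fewest counts, held 15 of the zeros, against 7 in control 2 and 8 in control 3. Over the 3 controls together, 7 of the genes had at most 5 counts, namely Mmp13, Cd80, Dnah12, Tcrg-C1, Ano3, Hapln1 and Cacna1c. At the other end, 13 genes had at least 10 counts in every control.

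Mmp13 and Cd80 were the genes with 0 counts in all controls, and their promoters are shown because both windows hold the AP-1 motif. Mmp13 (ENSMUSG00000050578.10, chromosome 9 from 7272514 to 7283331) encodes collagenase-3, which cleaves fibrillar collagen. It was at 10.9, 54.4 and 32.6 CPM in knockouts 1 to 3 (mean 32.7 ± 21.8, SD, n = 3). Taking 3 counts per library as the floor, the lowest knockout was at least 40.8-fold higher than the controls. Cd80 (ENSMUSG00000075122.5, chromosome 16 from 38455561 to 38496335) encodes B7-1, a ligand of CD28 and CTLA-4 on T cells. It was at 8.69, 27.5 and 30.9 CPM in knockouts 1 to 3 (mean 22.3 ± 11.9, SD, n = 3), at least 32.4-fold higher in the lowest knockout by the same floor. Both were lowest in knockout 1. The 250 bases before the RefSeq start (build GRCm38.p6, plus strand) are given below at chr9:7272264-7272513 for Mmp13 and chr16:38458683-38458932 for Cd80, with the AP-1 motif TGANTCA and, in Mmp13, the TATA box TATAAA in capitals.
Mmp13: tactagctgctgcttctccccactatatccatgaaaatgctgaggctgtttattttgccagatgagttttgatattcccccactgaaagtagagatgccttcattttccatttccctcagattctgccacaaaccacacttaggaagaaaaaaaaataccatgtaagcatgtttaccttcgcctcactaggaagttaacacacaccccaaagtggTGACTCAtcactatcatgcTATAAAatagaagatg
Cd80: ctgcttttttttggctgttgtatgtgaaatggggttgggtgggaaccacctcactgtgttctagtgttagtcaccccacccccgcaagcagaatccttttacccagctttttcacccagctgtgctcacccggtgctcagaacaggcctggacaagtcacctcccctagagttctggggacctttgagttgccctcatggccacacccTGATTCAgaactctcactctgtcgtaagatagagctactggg
In Mmp13 the AP-1 match begins 35 bases and the TATA box 16 bases before the annotated start. The AP-1 match in Cd80 begins 42 bases before it.

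Other genes of the extracellular matrix and of protease control among the 37 were Hapln1, Leprel1 and Serpina3f. Hapln1, a link protein that joins hyaluronan to proteoglycans, was at 0.0894, 0.274 and 0 CPM in controls 1 to 3 and at 30.6, 57.1 and 13.6 CPM in knockouts 1 to 3. The controls held 1, 4 and 0 counts of it. Serpina3f, of a family of serine protease inhibitors, was at 0, 1.09 and 0 CPM in controls and at 16.9, 14.2 and 22.5 CPM in knockouts. Leprel1, a prolyl hydroxylase of collagen now named P3h2, ranged from 0.894 to 4.67 CPM in controls and from 15.9 to 48.4 CPM in knockouts. A list of 23 metalloproteinases, their inhibitors and matrix genes had 12 genes tested besides Mmp13 and Hapln1. With edgeR's quasi-likelihood test and Benjamini-Hochberg adjustment, 0 of the 12 passed 0.05, with 1 higher at an unadjusted p under 0.05, and DESeq2 called 0. Over all genes tested, 582 of 13646 were higher at an unadjusted p under 0.05. Timp2, an inhibitor of metalloproteinases, was at 11.3, 12.4 and 20.97 CPM in controls and at 30.4, 39.7 and 34.4 CPM in knockouts (edgeR adjusted p = 0.762). Mmp3 and Mmp10, other metalloproteinases of the list, had 0 counts in all 6 samples.

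Across the whole table, edgeR called 0 of 13646 genes (0.0%) between the genotypes, with a smallest adjusted p of 0.452. At an unadjusted p under 0.05 there were 582 genes higher and 306 lower in the knockout. With the litter as a replicate block the count of calls was also 0, with 619 genes at an unadjusted p under 0.05. DESeq2 called 104 genes higher (0.777% of 13390) and 34 lower, and 29 of the 37 were among its higher calls, from which nothing is read since the rule used the same contrast. Every knockout was above every control for 742 of 12249 tested genes (6.06%) and below for 1054 (8.6%). The median log2 fold change of the 37 was 4.52, against 0.01 over all tested genes, and ranged from 2.41 for Stk39 to 11.96 for Mmp13.

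**Figure D2:**
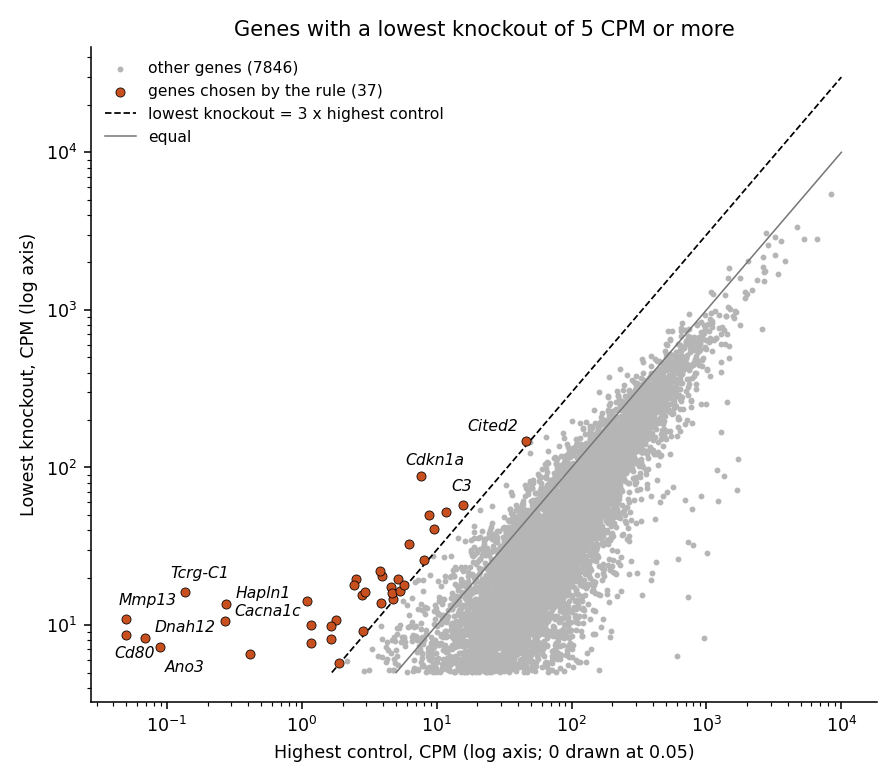
Lowest knockout level against highest control level for the 7883 genes whose lowest knockout reached 5 CPM, both axes in CPM on log scales. Each point is a gene, the 37 genes chosen by the rule are orange and lie on or above the dashed 3-fold line, and a highest control of 0 is drawn at 0.05.

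Genes of T-cell costimulation were Cd80 and Cd86, which encode the B7 ligands that antigen-presenting cells show to T cells. Cd86 was at 4.65, 9.51 and 8.29 CPM in controls 1 to 3 (mean 7.48 ± 2.53, SD, n = 3) and at 55.7, 40.7 and 60.9 CPM in knockouts 1 to 3 (mean 52.4 ± 10.5, SD, n = 3). Its knockout levels lay within 1.5 times of each other, while those of Cd80 spanned 3.55 times. Of 12 costimulatory and coinhibitory ligands, 4 were tested besides this pair. Among these 4, edgeR called 0 after adjustment, 0 were at an unadjusted p under 0.05, and DESeq2 called 0. Cd274, which encodes the inhibitory ligand PD-L1, was at 50.2, 28.9 and 31.6 CPM in controls and at 20.4, 30.0 and 22.5 CPM in knockouts (edgeR adjusted p = 0.901), and the groups overlapped. The median log2 fold change of the 4 was 0.29. Among dendritic cell markers, Cd74, the invariant chain of MHC class II, was at 1.34, 0.752 and 0.818 CPM in controls and at 0, 0 and 0.0637 CPM in knockouts (edgeR adjusted p = 0.686). The 12 dendritic cell markers together summed to 104, 122 and 99.5 CPM in controls and to 136, 96.1 and 163 CPM in knockouts. Of these markers 4 were tested, edgeR and DESeq2 called 0, and 1 was lower at an unadjusted p under 0.05, against 306 of 13646 genes. None of the 12 was among the 37, from which nothing is read, since the 37 are 0.469% of genes at 5 CPM or more in the lowest knockout.

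Receptors and effectors of innate immunity formed the largest group, with 12 genes whose summed level was 19.2, 41.6 and 52.5 CPM in controls 1 to 3 and 463, 410 and 936 CPM in knockouts 1 to 3. Receptors among them were Clec7a, Cmklr1, Cd200r4, Tnfrsf11a, Lilrb4, Tlr7 and C5ar1. Clec7a encodes Dectin-1, a receptor for fungal beta-glucans, and is annotated as a polymorphic pseudogene in GENCODE M21. It was at 0, 2.53 and 1.52 CPM in controls and at 52.3, 19.7 and 82.1 CPM in knockouts. Tnfrsf11a, which encodes the osteoclast receptor RANK, was at 0, 3.76 and 2.39 CPM in controls and at 58.7, 22.1 and 70.1 CPM in knockouts. Both were lowest in knockout 2 and highest in knockout 3. Cmklr1, the chemerin receptor, was at 0.268, 0.821 and 2.45 CPM in controls and at 45.6, 17.9 and 22.5 CPM in knockouts. Tlr7, an endosomal sensor of single-stranded RNA, was at 0, 3.90 and 2.04 CPM in controls and at 29.6, 23.8 and 20.4 CPM in knockouts. C5ar1, the receptor for the complement fragment C5a, was at 0, 5.13 and 0.409 CPM in controls and at 23.4, 19.5 and 95.2 CPM in knockouts. Another pattern was seen in Cd200r4, of the CD200 receptor family, and Lilrb4, an inhibitory receptor of myeloid cells, which were highest in knockout 2. Cd200r4 was at 7.64, 41.1 and 9.80 CPM and Lilrb4 at 16.3, 94.1 and 43.4 CPM in knockouts 1 to 3.

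The effectors in this group were C3, Anxa1, Oas2, Casp1 and Plac8. C3, the central complement component, was at 3.49, 9.78 and 15.6 CPM in controls 1 to 3 and at 107, 58.0 and 433 CPM in knockouts 1 to 3 (means 9.62 ± 6.06 and 199 ± 204, SD, n = 3 each). Its knockouts spanned 7.46 times, and knockout 3 set most of the mean. Anxa1, a phospholipid-binding protein that limits inflammation, was at 11.8, 5.47 and 10.2 CPM in controls and at 56.2, 52.4 and 97.7 CPM in knockouts. Oas2, an interferon-induced sensor of double-stranded RNA, was at 2.32, 1.44 and 3.85 CPM in controls and at 18.7, 22.6 and 13.9 CPM in knockouts. Casp1, the inflammasome protease, was at 0.268, 4.72 and 4.67 CPM in controls and at 31.5, 14.6 and 20.1 CPM in knockouts. Plac8 was at 0, 1.57 and 5.32 CPM in controls and at 16.4, 24.5 and 28.1 CPM in knockouts. Anxa1, Oas2 and Plac8 differed by less than 2 times among knockouts.

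None of 24 macrophage markers was among the 37. Nothing is read from this, since the 37 are 0.469% of genes at 5 CPM or more in the lowest knockout. The summed level of the 24 markers was 1065, 1597 and 1190 CPM in controls 1 to 3 and 2819, 1138 and 4824 CPM in knockouts 1 to 3. The sum of knockout 2 turned on Mrc1, the mannose receptor, which was at 465, 917 and 504 CPM in controls and at 809, 66.1 and 816 CPM in knockouts. Without Mrc1, left out after the values were seen, the sum was 600.3, 680.0 and 686 CPM in controls and 2010, 1072 and 4008 CPM in knockouts. Every knockout was then above every control. Nothing is read from this, since Mrc1 was picked as the marker that held knockout 2 down. Of the 24 markers, 16, 9 and 18 were above every control in knockouts 1, 2 and 3, without a share over all genes for a single knockout. In 6 of the 20 tested, every knockout was above every control, against 6.06% of all tested genes. The median log2 fold change of the 20 was 1.84. Of the 20 macrophage markers tested, edgeR called 0 after adjustment, with 8 higher at an unadjusted p under 0.05, and DESeq2 called 5. Over all genes, 582 of 13646 were higher at an unadjusted p under 0.05, and DESeq2 called 104 of 13390 higher (0.777%). C1qb, a complement subunit made by macrophages, was at 22.3, 27.9 and 32.6 CPM in controls and at 94.2, 77.4 and 211 CPM in knockouts (edgeR adjusted p = 0.622). Csf1r, the receptor for the macrophage growth factor CSF-1, was at 23.1, 100.1 and 57.7 CPM in controls and at 198, 231 and 315 CPM in knockouts (edgeR adjusted p = 0.622). Vsig4 had 0 counts in the controls and in knockout 2 and 3.03 and 3.06 CPM in knockouts 1 and 3. Neutrophil markers summed to 173, 170 and 355 CPM in controls and to 214, 403 and 1282 CPM in knockouts, highest in knockout 3. Of 10 tested, edgeR and DESeq2 called 0, with 1 higher at an unadjusted p under 0.05. The median log2 fold change of the 10 was 2.32, and it fell to 0.70 when knockout 3 was left out. The part of these marker levels in the levels of the innate immune genes was not tested. Inflammatory cytokines and chemokines included none of the 37 and no call by edgeR or DESeq2 among 11 tested, with 0 at an unadjusted p under 0.05. The median log2 fold change of the 11 was 1.54, against 0.01 over all tested genes. The 24 genes listed summed to 22.1, 51.5 and 79.8 CPM in controls and to 125, 56.2 and 330 CPM in knockouts. Tnf was at 0.804, 3.90 and 1.28 CPM in controls and at 9.22, 8.42 and 3.18 CPM in knockouts (edgeR adjusted p = 0.844).

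**Figure D3:**
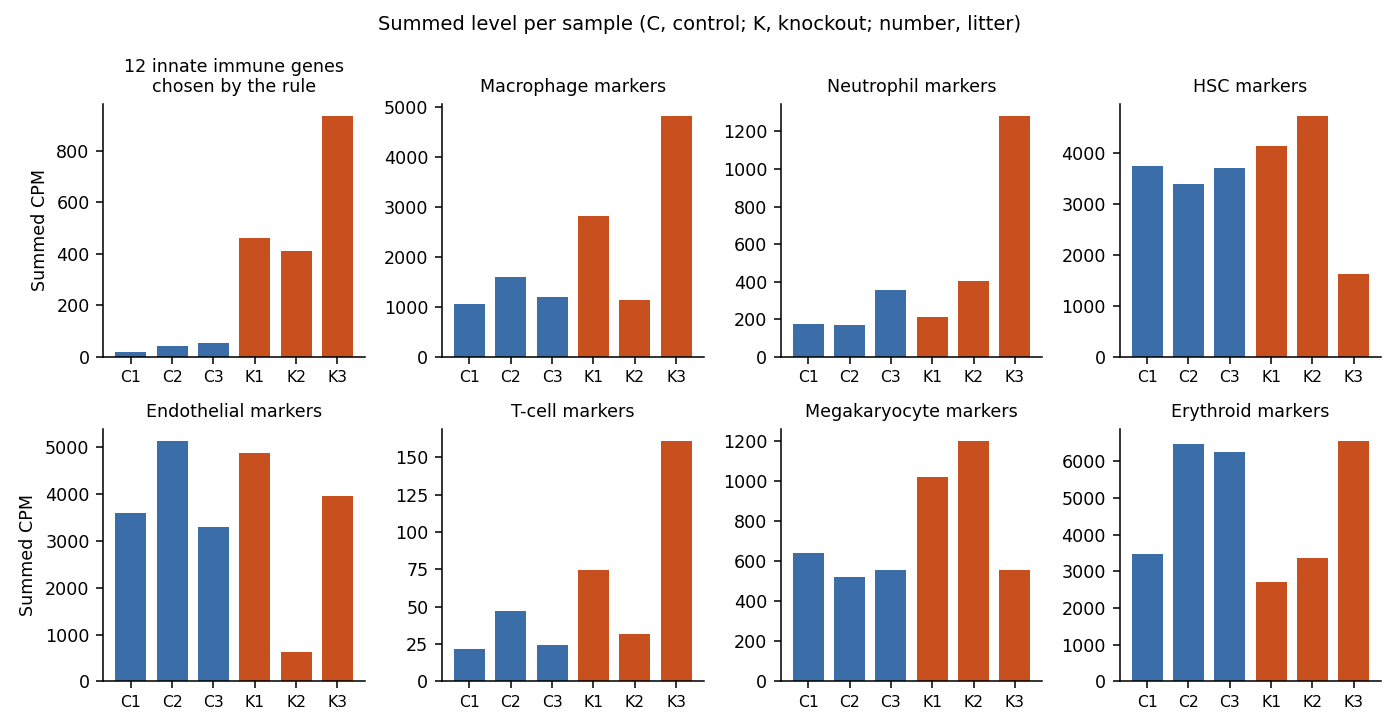
Summed level per sample, in CPM from 0, of the 12 innate immune genes chosen by the rule and of marker lists for 7 cell types. Blue bars are controls and orange bars knockouts, numbered by litter. The macrophage sum is highest in knockout 3 (4824 CPM) and 1138 CPM in knockout 2, and the HSC sum of knockout 3 (1625 CPM) is below all others.

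Genes of the T-cell receptor and its signalling were Tcrg-C1 and Dgka. Tcrg-C1 (ENSMUSG00000076749.2, chromosome 13 from 19214103 to 19217024), a constant segment of the T-cell receptor gamma chain, had 0, 2 and 0 counts in controls and 736, 235 and 1752 counts in knockouts. These are 48.5, 16.2 and 111.5 CPM in knockouts 1 to 3, a ratio of pooled levels of 1288 (95% exact interval 356 to 10640.0, which covers counting error only). Of the 23 T-cell markers, 9 had 0 counts in all 6 samples. They were Tcrg-C2, Tcrg-C4, Trac, Trbc1, Cd3d, Cd3e, Cd3g, Cd8a and Zap70, while Tcrg-C3 was at 2.10 CPM in knockout 3 and at 0 elsewhere. The T-cell markers summed to 21.9, 47.1 and 24.6 CPM in controls 1 to 3. In knockouts 1 to 3 they summed to 74.5, 31.7 and 161 CPM, so that knockout 2 lay within the control range. Tcrg-C1 made up most of the sum in every knockout. Reads shared between near-identical gamma segments could be placed on the wrong one or left out, so the split among them is uncertain. Dgka, a diacylglycerol kinase that dampens T-cell receptor signalling, was at 5.54, 4.38 and 6.25 CPM in controls and at 32.8, 33.7 and 64.3 CPM in knockouts. Of 5 T-cell markers tested besides Tcrg-C1, edgeR called 0 after adjustment, 0 were at an unadjusted p under 0.05, and DESeq2 called 0. Their median log2 fold change was -0.67. Cd4 was at 8.13, 3.83 and 0.526 CPM in controls and at 3.89, 12.01 and 37.4 CPM in knockouts (edgeR adjusted p = 0.814). Thy1 was at 1.52, 18.2 and 4.26 CPM in controls and at 0.0659, 2.14 and 0 CPM in knockouts (edgeR adjusted p = 0.824). Of 15 markers of natural killer and innate lymphoid cells, 5 were tested, edgeR called 0 after adjustment, 1 was at an unadjusted p under 0.05, and DESeq2 called 1. Over all genes, 888 of 13646 were at an unadjusted p under 0.05, and DESeq2 called 0.777% higher. In all 6 samples 5 of the 15 had 0 counts. Nkg7, a cytotoxic granule protein, was at 0, 0 and 0.467 CPM in controls and at 2.83, 21.7 and 31.4 CPM in knockouts (edgeR adjusted p = 0.642; DESeq2 adjusted p = 0.00111).

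Cell cycle inhibition and the p53 response were represented by Cdkn1a and Perp. p53 is a transcription factor that answers DNA damage and other stress by halting the cell cycle or starting cell death. Cdkn1a (ENSMUSG00000023067.14, chromosome 17 from 29090976 to 29100727) encodes the cyclin-dependent kinase inhibitor p21. It was at 5.004, 7.66 and 3.74 CPM in controls 1 to 3 (mean 5.47 ± 2.00, SD, n = 3) and at 87.8, 231 and 366 CPM in knockouts 1 to 3 (mean 228 ± 139, SD, n = 3). Its knockout over control ratio was 17.5 in litter 1, 30.2 in litter 2 and 97.9 in litter 3, and the rule's ratio of lowest knockout to highest control was 11.5. Perp, a membrane protein and effector of p53-dependent death, was at 0, 0.137 and 1.64 CPM in controls and at 13.6, 13.4 and 9.80 CPM in knockouts. The promoter window at the upstream RefSeq start of Cdkn1a is shown because, alone among the windows of the 37, it matched the p53 consensus site. Printed are the 250 bases at chr17:29090729-29090978 (GRCm38.p6, plus strand), with the match in capitals, its pair of half-sites included with the bases between them.
Cdkn1a: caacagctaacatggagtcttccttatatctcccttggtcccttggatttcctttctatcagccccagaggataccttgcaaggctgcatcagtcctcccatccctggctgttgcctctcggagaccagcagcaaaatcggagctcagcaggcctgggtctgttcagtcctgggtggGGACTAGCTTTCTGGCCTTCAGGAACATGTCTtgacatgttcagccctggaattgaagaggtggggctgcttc
The match begins 73 bases before this start, and 0.0376% of windows of genes at 5 CPM or more in the lowest knockout hold one. The search took exact half-sites only, with bases between them allowed. The bases right after the capitals come near a further half-site and were not counted, so the capitals may not be the stretch that p53 binds. In the second Cdkn1a window, at the downstream start, no match was found.

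Other genes that p53 is known to activate were taken from a list of 34, of which 30 were tested besides Cdkn1a and Perp. Among these 30, edgeR called 0 after adjustment and DESeq2 called 2, against 0.777% of all genes called higher by DESeq2. At an unadjusted p under 0.05 there were 8, all higher in the knockout, against 582 higher of 13646 genes tested. In 10 of the 30 every knockout was above every control, against 6.06% of all genes. The median log2 fold change of the 30 was 1.03, against 0.01 over all tested genes. Ccng1, cyclin G1, was at 228, 182 and 211 CPM in controls and at 422, 575 and 811 CPM in knockouts (edgeR adjusted p = 0.571; DESeq2 adjusted p = 7.77e-04). Sesn2, a stress-induced regulator of mTORC1, was at 2.06, 17.4 and 9.70 CPM in controls and at 17.8, 81.6 and 128 CPM in knockouts (edgeR adjusted p = 0.686). Bbc3, which encodes the death effector PUMA, missed the rule at the level threshold, with 0.447, 0.0684 and 0.234 CPM in controls and 4.68, 3.17 and 7.07 CPM in knockouts (edgeR adjusted p = 0.672). Mdm2, the ubiquitin ligase that restrains p53, was at 213, 79.7 and 143 CPM in controls and at 278, 208 and 272 CPM in knockouts (edgeR adjusted p = 0.759), so its groups overlapped. Ddb2 was at 2.50, 4.45 and 0.935 CPM in controls and at 0.527, 3.10 and 0 CPM in knockouts (edgeR adjusted p = 0.946). Mdm2 and Ddb2, which overlapped or went the other way, were added after their values were seen.

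Channels, transport and membrane signalling counted 6 genes, of which Cacna1c and Ano3 were nearly absent from controls. Cacna1c, the pore-forming subunit of the L-type calcium channel Cav1.2, was at 0.268, 0.137 and 0 CPM in controls and at 10.5, 11.1 and 67.5 CPM in knockouts. Knockout 3 was 6.404 times the lowest knockout. Ano3, an anoctamin of the family of calcium-activated channels and scramblases, had 1 count over all controls and was at 7.31, 12.01 and 10.1 CPM in knockouts, a ratio of pooled levels of 420.0 (95% exact interval 75.0 to 16626). Kcnj5, an inward rectifier potassium channel, was at 4.20, 0 and 8.76 CPM in controls and at 60.5, 92.5 and 49.97 CPM in knockouts. Syt13, a synaptotagmin, varied least among knockouts, at 6.59, 7.52 and 9.04 CPM, against 0, 0.410 and 0.234 CPM in controls. Stk39, a kinase that regulates ion cotransporters, was at 5.37 to 5.72 CPM in controls and at 18.05 to 40.3 CPM in knockouts. Of 18 subunits of voltage-gated calcium channels, 4 were tested besides Cacna1c. Among these 4, edgeR called 0 after adjustment, 0 were at an unadjusted p under 0.05, and DESeq2 called 0. Cacnb2, an accessory beta subunit, was at 24.9, 10.1 and 23.9 CPM in controls and at 25.9, 64.5 and 21.8 CPM in knockouts (edgeR adjusted p = 0.848), and the groups overlapped.

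Motor proteins were Dnah12, a heavy chain of axonemal dynein, and Myh7b, a myosin heavy chain of muscle. Dnah12 had 1 count over all controls and was at 8.50, 8.28 and 17.6 CPM in knockouts, a ratio of pooled levels of 497 (95% exact interval 88.7 to 19652). Myh7b was at 0, 8.002 and 7.07 CPM in controls and at 30.6, 26.01 and 147 CPM in knockouts. Knockout 3 was the highest sample for both.

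The remaining 7 genes act in glycosylation, lipid handling, trafficking and gene regulation. Cited2, a transcriptional co-regulator that binds CBP and p300 and is needed for blood formation in the fetal liver, was at 45.8, 33.4 and 42.9 CPM in controls 1 to 3 (mean 40.7 ± 6.45, SD, n = 3). In knockouts 1 to 3 it was at 148, 226 and 529 CPM (mean 301 ± 201, SD, n = 3), and its ratio within litters was 3.24, 6.76 and 12.3. Galnt6, which starts mucin-type O-glycosylation, was at 0, 0 and 2.80 CPM in controls and at 15.4, 20.2 and 60.7 CPM in knockouts. Tmtc1, an O-mannosyltransferase of the endoplasmic reticulum, was at 1.16, 0 and 0.0584 CPM in controls and at 10.01, 17.3 and 26.7 CPM in knockouts. Zc3h3, a zinc-finger protein of mRNA processing, spread most among knockouts, at 8.03, 5.73 and 52.3 CPM against 1.505 to 1.88 CPM in controls. Arap2 (a GTPase-activating protein of Arf), Ephx2 (soluble epoxide hydrolase) and Apoc1 (an apolipoprotein) had knockout levels of 17.5 to 49.7, 8.21 to 12.97 and 9.10 to 28.8 CPM. Their control levels were 0.179 to 4.56, 0 to 1.64 and 0.894 to 2.86 CPM.

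Promoter windows, 250 bases before to 50 after a RefSeq start, were found for 25 of the 37 genes (36 windows). The median window held 5 CpG dinucleotides, against 22 over windows of all genes whose lowest knockout reached 5 CPM and 7 over all windows in the table. In 26 of the 36 windows (72.2%) the CpG count was under 0.6 of that expected from base content, against 24.7% and 64.2% in those sets. These shares describe the windows and were not tested. Some genes hold several windows, which can overlap, so the windows are not independent. Of the 25 genes, 16 had every window under this cut, and the share per gene was not computed for the other sets. The Cited2 window, with 29 CpG, is shown as the CpG-rich case beside Mmp13 with 1, Cdkn1a (upstream start) with 2 and Cd80 with 3. Its first 250 bases lie at chr10:17722978-17723227 (GRCm38.p6, plus strand), and capitals mark each CpG.
Cited2: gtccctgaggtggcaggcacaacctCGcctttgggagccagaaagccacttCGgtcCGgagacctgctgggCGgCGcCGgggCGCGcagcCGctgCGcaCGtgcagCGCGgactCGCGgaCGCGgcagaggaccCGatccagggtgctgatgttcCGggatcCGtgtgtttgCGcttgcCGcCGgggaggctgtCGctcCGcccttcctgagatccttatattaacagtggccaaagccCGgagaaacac
On either strand, TATAAA was found in 9 of the 36 windows (25%), against 6.86% of windows of genes at that level and 13.6% of all. TGANTCA was found in 3 windows (8.33%, against 4.56% and 7.81%), those of Mmp13, Cd80 and Arap2. GAGGAAG, the core bound by the myeloid factor PU.1, was found in 2 (5.56%, against 13.7% and 13.6%), and the E-box CACGTG in 6 (16.7%, against 10.5% and 7.15%). These motifs do not overlap by their letters. Exact p53 half-sites, those within the Cdkn1a match included, were found in 4 windows (11.1%, against 6.71% and 8.36%). The ISRE core, a motif of interferon-induced genes searched as 2 GAAA with 2 bases between, was found in 1 (2.78%, against 3.18% and 3.44%). A match says only that the letters are in the window.

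**Figure D4:**
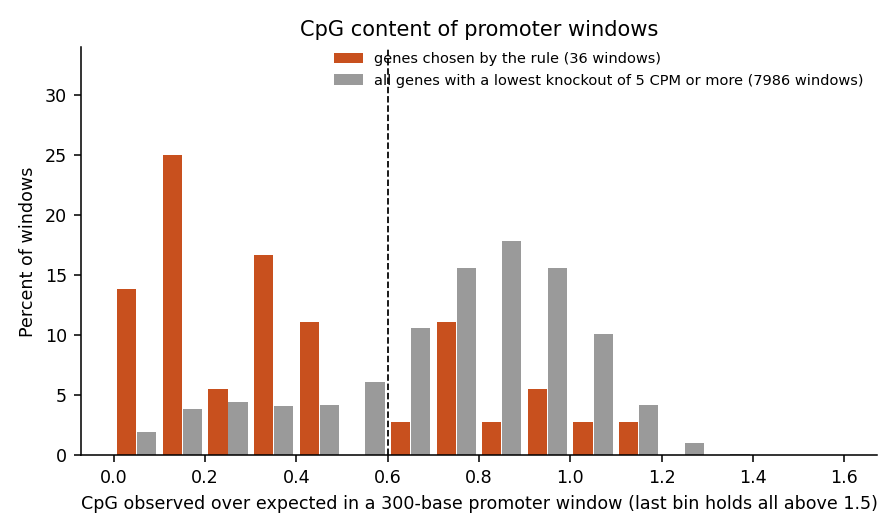
CpG content of promoter windows. The x axis gives observed over expected CpG in bins of 0.1, the y axis the percent of windows in each bin, orange for the 36 windows of the genes chosen by the rule and grey for all windows of genes whose lowest knockout reached 5 CPM. Of the orange windows 72.2% lie left of the dashed line at 0.6, against 24.7% of the grey ones.

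Markers of other blood lineages were not among the 37, from which nothing is read at a share of 0.469% over genes at 5 CPM or more in the lowest knockout. The summed level of 12 megakaryocyte markers was 642, 521 and 555 CPM in controls 1 to 3 and 1018, 1199.5 and 557 CPM in knockouts 1 to 3, so that knockout 3 lay within the control range. Erythroid markers summed to 3465, 6456 and 6233 CPM in controls and to 2712, 3356 and 6548 CPM in knockouts, and the groups overlapped. Beside the counts that follow, 582 of all 13646 genes tested were higher and 306 lower at an unadjusted p under 0.05. DESeq2 called 104 of 13390 genes higher (0.777%) and 34 lower. Of 12 megakaryocyte markers tested, edgeR called 0, with 3 higher and 1 lower at an unadjusted p under 0.05, and DESeq2 called 2. Itgb3, the integrin beta-3 chain, was at 181, 187 and 169 CPM in controls and at 436, 635 and 278 CPM in knockouts (edgeR adjusted p = 0.612). Of 14 erythroid markers tested, edgeR called 0, with 0 higher and 3 lower at an unadjusted p under 0.05, and DESeq2 called 1. In knockout 3, 5 of the 14 were above every control and 2 below, from which nothing is read without a share over all genes for a single knockout. Only 1 of the 14, Tfrc, had every knockout below every control, against 8.6% of all tested genes. Tfrc, the transferrin receptor, was at 987, 931 and 855 CPM in controls and at 253, 345 and 327 CPM in knockouts (edgeR adjusted p = 0.537; DESeq2 adjusted p = 3.99e-05). Among 5 tested markers of mast cells, basophils and eosinophils, with 0 calls by edgeR or DESeq2 and 2 at an unadjusted p under 0.05, Il1rl1, the receptor for interleukin-33, was at 12.8, 14.6 and 22.3 CPM in controls and at 34.2, 89.8 and 52.1 CPM in knockouts (edgeR adjusted p = 0.663). All 24 lysosomal genes listed were tested, and edgeR and DESeq2 called 0, with 4 higher at an unadjusted p under 0.05. Ctsb, a cysteine protease of the lysosome, was at 259, 437 and 534 CPM in controls and at 782, 647 and 1218 CPM in knockouts (edgeR adjusted p = 0.672). The part of these marker levels in the levels of the 37 was not tested.

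The knockouts differed among themselves for these genes. The summed level of the 37 was 97.9, 121 and 156 CPM in controls 1 to 3 and 1172, 1435 and 2793 CPM in knockouts 1 to 3. Knockout 3 was the highest knockout for 24 of the 37, knockout 2 for 9 and knockout 1 for 4, whereas knockout 3 was highest for 33.1% of all genes at 5 CPM or more in the lowest knockout. Knockout 3 is also the library with the low HSC marker sum, and the part of this in the result was not tested. The median coefficient of variation among knockouts was 51.7% for the 37 and 39.5% for all genes at that level. The highest knockout was under 2 times the lowest in 13 of the genes and over 5 times in 7. Within litters, the median ratio of knockout to control was 14.8 over 22 genes in litter 1, 10.6 over 30 in litter 2 and 10.4 over 29 in litter 3, among those with a control count.

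Near the thresholds, Plac8, Casp1 and Zc3h3 passed the ratio most narrowly, at 3.09, 3.08 and 3.05. Lgals8 and Dcbld2, both at 2.96, and Ddc, at 2.76, missed it most narrowly. Zc3h3, Syt13 and Ano3 lay closest above 5 CPM, at 5.73, 6.59 and 7.31 CPM in the lowest knockout. Dio2, at 3.89 CPM, and Bbc3, at 3.17 CPM, passed the ratio and missed the level, as did 1 RIKEN clone at 4.14 CPM.

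The 37 genes lay on 15 chromosomes, and 35 were annotated as protein-coding. The closest pairs were Cited2 and Perp on chromosome 10, 1119 kb apart, Cd86 and Cd80 on chromosome 16, 1789.5 kb apart, and Casp1 and Mmp13 on chromosome 9, 1965 kb apart. The strand setting of the counting is not given in the sources used here, so reads of overlapping antisense genes cannot be told apart. Such overlap covered 28.4% of the exonic bases of Leprel1, 11.4% of Galnt6 and 7.68% of Cdkn1a. Lilrb4 shared 35.3% of its exonic bases with a gene model on its own strand, and Lilrb4, Cd200r4 and Serpina3f belong to families with near-identical copies, so their counts are uncertain. Under the mirrored rule 3 of the 19 genes, Cd160, Gpc6 and Kcng2, had 0 counts in every knockout; they were named after their values were seen.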

How the data were processed

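Poly(A) RNA of sorted HSCs was sequenced in 6 samples. Raw read counts per gene, deposited by the authors for each sample separately, were the starting point. Per the submitters' processing notes, the tools included TopHat2, Picard 1.126 and HTSeq 0.6.0, with build mm10. Versions of the annotation are not given in the sources used here. No molecular tags are described, so intervals and floors cover counting error only. Unassigned reads, listed as 5 tallies per sample, were left out, as were 37 mitochondrial rows, which held 49.2% to 67.7% of gene counts, and 13726 rows starting with Gm, of which 16 were other named genes.

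Counts of all genes were fitted with edgeR 4.0.16 (R 4.3.3; filterByExpr by genotype, TMM, quasi-likelihood F test, no litter term, Benjamini-Hochberg, threshold 0.05). DESeq2 1.42.0 was an alternative. The procedure was tested on simulated data. Samples sharing a number come from 1 litter, so the fit with the litter as a block pairs them by the labels. Over 13646 genes their deviations from the group means correlated at -0.02, -0.08 and 0.00336 in litters 1 to 3. P-values measure only the spread between these samples.

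All members and lists were chosen with earlier results of these data known, and roles were given after values were seen. Every member is counted by role. Named in full are the 12 with the largest ratio, the 6 with the highest lowest-knockout CPM, members on a list and genes at the thresholds, and up to 3 others per list by edgeR p. RIKEN clones are not named, and 1 of the 37 genes is not reported here by name. Listed genes at or near 0 counts (such as Mmp3, Vsig4 and Cd3e), Thy1, Mrc1 and the HSC markers were named after their values were seen. All 37 symbols matched GENCODE M21, which gave positions. Promoters are from RefSeq (GRCm38.p6).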

Additional observations from a re-analysis of the deposited data

How the results depend on the processing

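A ratio of 2 in place of 3 gave 62 genes and a ratio of 5 gave 23, nested by construction. Leaving out each sample in turn gave 48 to 101 genes, always including the 37, since a rule on fewer samples can only admit more; the highest count came without knockout 2, and the counts without controls 2 and 3 and knockouts 1 and 3 (67, 64, 82 and 77) also exceeded the count of 37 by over 1.5 times. Scaling to all gene counts, mitochondrial ones included, gave 28 genes, of which 24 were among the 37. Of the 13 lost, 12 fell under 5 CPM on that larger total, Cd80 and Cacna1c among them, and Casp1 fell to a ratio of 2.96. TMM scaling gave 40 genes, a lowest knockout of 2 or 10 CPM gave 42 or 28, and keeping the Gm rows gave 37. Across all genes, DESeq2 called 138 and edgeR without a filter on low counts called 1, Cdkn1a. The other edgeR settings called 0, the replicate block (paired by litter) and each left-out sample included. The median log2 fold change of the 37 ranged from 4.12 to 5.07 over these fits, while that of all genes ranged from -0.12 with the block to 0.23 with library sizes alone. Of 231 medians recomputed for the lists, the 37 and all genes, 9 moved by more than the median SE of their genes (by more than 0.1 for all genes). Counts of 3 or fewer per control limit the ratios of Dnah12, Ano3 and Tcrg-C1, as their intervals show.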
